A study of Oryza sativa Indica Group with 4 samples.

Results

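The data compared leaf blades of wild-type rice grown at 30 °C with those grown at 25 °C, by RNA sequencing. Rice is a warm-climate grass, and both temperatures lie within the range in which it grows normally, so the comparison concerns ambient temperature and not a heat shock. The members were all transcript models with at least 1 read in either wild-type library, 32564 of the 35204 models with a read anywhere in the series. They were chosen by no measured difference. The wild type was the indica variety Zhongxian 3037, and its fourth-leaf blades were collected from 22-day-old seedlings and pooled, with 1 library at 25 °C (WT25) and 1 library at 30 °C (WT30). The series also holds 1 library at each temperature from togr1-1, a thermosensitive dwarf mutant in the Zhongxian 3037 background with a glycine to valine substitution in the DEAD-box RNA helicase TOGR1 (tog25 and tog30).

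Plants acclimate to ambient temperature over days by altering the transcripts of photosynthesis, sugar metabolism, protein folding and the scavenging of reactive oxygen. DEAD-box RNA helicases unwind RNA with ATP and act in the processing of ribosomal RNA and other steps of RNA metabolism. Ascorbate peroxidases (APX) reduce hydrogen peroxide with ascorbate. Galactinol synthases (GolS) make galactinol, the donor of galactosyl units for the raffinose family of sugars, which act as osmoprotectants. The study names rice loci of each of these kinds. All other models carry locus identifiers that were not paired with gene names by the sources used here, so their functions are not given. For the same reason the identity of the tissue was not checked against marker genes.

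Reads counted on transcript models came to 12217702 in WT25 and 11959859 in WT30, and to 12371522 and 12139238 in tog25 and tog30. Between 29483 and 29960 models had a read in a given library. Each condition was 1 pool, so the spread between plants was not measured. Every test below therefore compares libraries and covers counting error, and treats each read as an independent count. In a pool of leaf tissue, fewer cells of a type and less RNA per cell cannot be told apart. RPKM, used below for levels, is reads scaled by the length of the transcript and by the total of the library.

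The transcript of TOGR1 (LOC_Os03g46610, on chromosome 3) was at nearly the same level at both temperatures. Its first model (LOC_Os03g46610.1, 1819 bases) had 171 reads in WT25 and 172 reads in WT30, or 7.69 and 7.91 RPKM. The log2 ratio of 30 over 25 °C, with 1 read added to each count, was 0.04, with a 95% Clopper-Pearson interval of -0.27 to 0.35. The interval excludes a 2-fold difference in either direction between these libraries. With TMM factors in place of the read totals the small value changed sign, to -0.06. The second model had 4 reads in WT25 and 8 reads in WT30, too few to place its ratio. In togr1-1 the first model had 123 reads at 25 °C and 141 reads at 30 °C, and the responses were not told apart by Fisher's exact test over the 4 libraries (adjusted p = 0.828, with a difference of -0.18 on the log2 scale). Over all models that test called a difference in 4.61%. The paper reports, by qRT-PCR, that TOGR1 rose within hours of a transfer to a higher temperature. The plants sequenced here instead grew for days at each temperature, so the short-term response was not examined.

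The homologue of APX2, a gene that scavenges reactive oxygen, was slightly lower at 30 °C without passing the test. This locus (LOC_Os07g49400, on chromosome 7) had 3 models, and LOC_Os07g49400.3 held nearly all of its reads. That model had 241 reads in WT25 and 195 reads in WT30, or 12.4 and 10.2 RPKM. Its log2 ratio was -0.27 (interval -0.55 to 0.00), with an adjusted p of 0.136 in the exact binomial test. The minor models LOC_Os07g49400.4 and LOC_Os07g49400.2 had 12 and 2 reads in WT25, and 4 and 0 reads in WT30. In togr1-1 the main model had 323 reads at 25 °C and 142 reads at 30 °C, a log2 ratio of -1.15 (interval -1.45 to -0.87) that passed the test. Among all models with a togr1-1 read, 6.93% passed, 4.54% higher and 2.39% lower at 30 °C. The wild-type value stood 0.88 above that of togr1-1 on the log2 scale. Fisher's exact test gave an adjusted p of 0.000157 for this difference, which was below 2-fold.

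The homologues of GolS2, which encodes a galactinol synthase, differed in the sign of their wild-type ratios. The homologue on chromosome 3 (LOC_Os03g20120.1, 1433 bases) fell from 380 reads in WT25 to 152 reads in WT30, or from 21.7 to 8.87 RPKM. The library at 25 °C held 2.45 times as much of it as the library at 30 °C (interval 2.02 to 2.97). The log2 ratio was -1.29 (adjusted p = 3.24e-21, exact binomial test). In togr1-1 it had 615 reads at 25 °C and 279 reads at 30 °C, a log2 ratio of -1.11, and the responses did not differ by Fisher's exact test (adjusted p = 0.656). The transcript was thus higher at 25 °C in both genotypes, and its levels in tog25 and tog30 were 34.7 and 16.04 RPKM.

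The homologue of GolS2 on chromosome 7 (LOC_Os07g48830) was higher at 30 °C in the wild type, by less than 2-fold. Its first model (LOC_Os07g48830.1, 1463 bases) had 74 reads in WT25 and 130 reads in WT30, or 4.14 and 7.43 RPKM. The log2 ratio was 0.84 (interval 0.42 to 1.28, adjusted p = 0.000307), so that it was past the limit on p but below the 2-fold limit. With TMM factors the adjusted p was 0.00184, short of both limits. The second model had 27 reads in WT25 and 44 reads in WT30, with a log2 ratio of 0.72 (adjusted p = 0.121). The first model in togr1-1 had 99 reads at 25 °C and 70 reads at 30 °C, a log2 ratio of -0.47. The responses of this model differed by 1.30 on the log2 scale (adjusted p = 0.000207, Fisher's exact test). The second model went the other way in togr1-1, with 11 reads at 25 °C and 25 reads at 30 °C (log2 ratio 1.14), and its difference was -0.43 (adjusted p = 0.890). Summed over both models the difference was 0.99, just below 2-fold. Over both models the locus had 101, 174, 110 and 95 reads in WT25, WT30, tog25 and tog30. WT30 was the highest of the 4, and the other libraries lay close together.

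**Figure D1:**
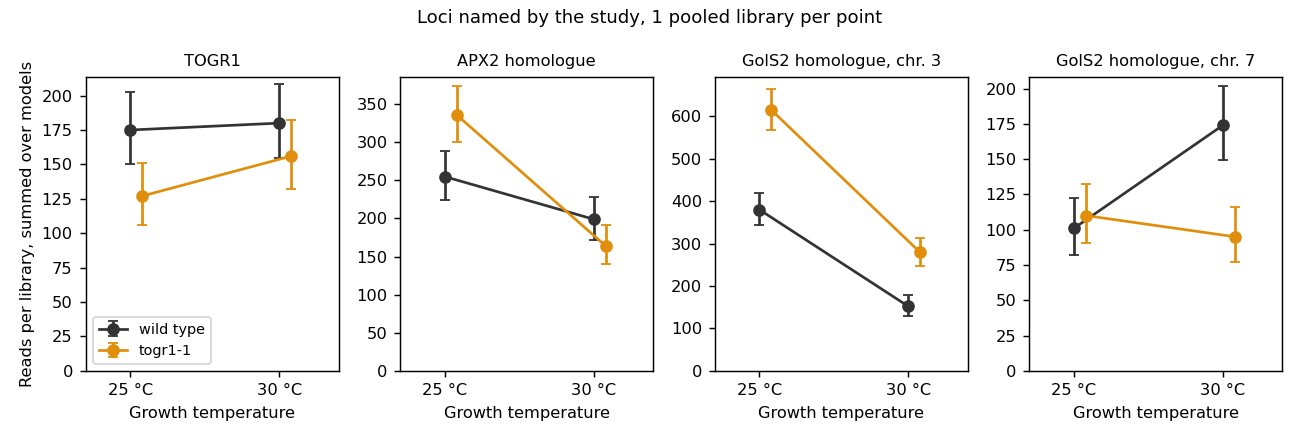
Reads of the loci named by the study, summed over their models (vertical axis, from 0, not length-corrected), at 25 and 30 °C in the wild type (dark) and togr1-1 (orange), 1 pooled library per point. Bars are exact 95% Poisson intervals and cover counting error only. The GolS2 homologue on chromosome 3 falls in both genotypes, from 380 to 152 reads in the wild type, while the one on chromosome 7 is at 174 reads in WT30 and between 95 and 110 in the other libraries.

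Over all models, 2606 (8.0%) passed the exact binomial test at an adjusted p of at most 0.001 with a difference of at least 2-fold. Of these, 1391 were higher at 30 °C (4.27% of those tested) and 1215 were lower (3.73%). With TMM factors the split turned over, to 1127 higher and 1461 lower, and with DESeq2 size factors it was 1205 and 1366. The majority direction is therefore not fixed by these data. With biological variation between replicates assumed, the exact test of edgeR called 531 (227 higher, 304 lower) at a coefficient of variation of 0.2 and 24 (3 higher, 21 lower) at 0.4. Changes were mostly moderate. Among the models with at least 20 reads over the wild-type libraries, 80.9% had a log2 ratio between -1 and 1, and the interquartile range was -0.34 to 0.51. The median was 0.10, and 0.00 with TMM factors.

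The models that were lower at 30 °C had the larger changes. Their median log2 ratio was -1.69, against 1.56 for the models that were higher. A change of at least 8-fold was found in 242 of the 1215 lower models and in 116 of the 1391 higher models, on the scale with 1 read added. At 16-fold these numbers were 126 and 46. With the 4-fold limit in the call itself, 496 models were lower and 434 were higher. The lower models took 8.97% of all reads in WT25 and 3.09% in WT30. The higher models took 2.63% in WT25 and 7.17% in WT30. These shares describe models that were chosen on the same reads.

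**Figure D2:**
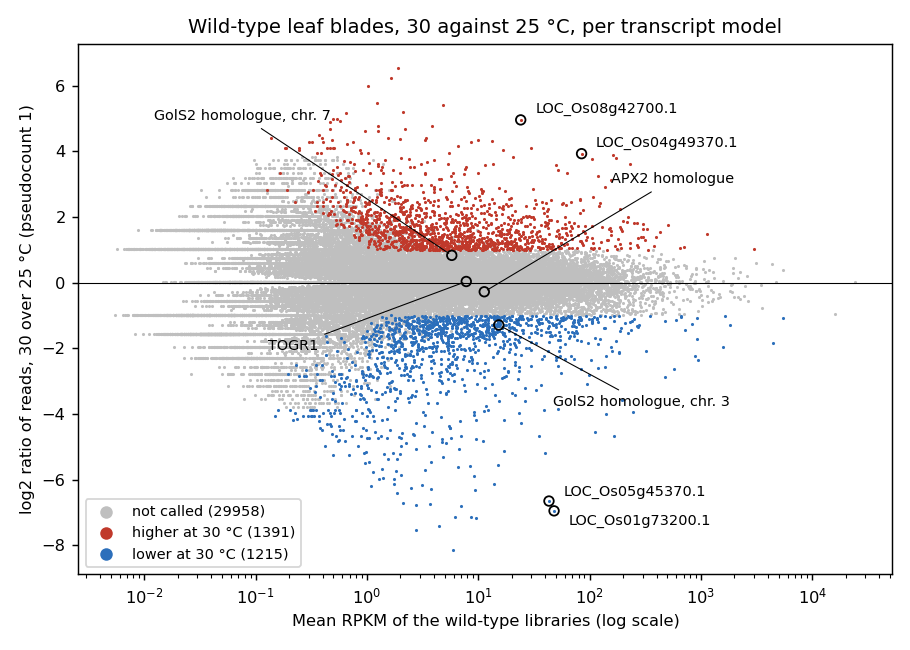
Log2 ratio of reads at 30 over 25 °C (vertical axis, 1 read added to each count) against the mean RPKM of the wild-type libraries (horizontal axis, log scale), 1 point per transcript model. Red points are the 1391 models called higher at 30 °C and blue points the 1215 called lower; circles mark the main models of the loci named by the study and the 4 models ranked by size of change. Most models lie between -1 and 1, and the lower tail reaches further than the upper one.

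Among abundant models, the largest differences were falls at 30 °C. Of the 425 called models with at least 1000 reads over the wild-type libraries, LOC_Os01g73200.1 (1299 bases, on chromosome 1) had the lowest log2 ratio. It had 1511 reads in WT25 and 11 reads in WT30, or 95.2 and 0.708 RPKM. WT25 held 134 times as much (interval 74.9 to 269.9; log2 ratio -6.95). In togr1-1 it was low at both temperatures, with 30 reads at 25 °C and 22 reads at 30 °C, so that WT25 alone of the 4 libraries was high. The responses differed by -6.54 on the log2 scale (adjusted p = 1.90e-25, Fisher's exact test). The abundant models described here and below were picked for the most extreme wild-type ratios. Fisher's exact test reuses those reads, so a larger wild-type response follows in part from the choice.

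The next lowest was LOC_Os05g45370.1 (1371 bases, on chromosome 5), with 1433 reads in WT25 and 13 reads in WT30. These were 85.5 and 0.793 RPKM, a difference of 108-fold (interval 62.9 to 203.2; log2 ratio -6.65). In togr1-1 it had 3 reads at 25 °C and 0 reads at 30 °C. Again WT25 was the single high library. With so few togr1-1 reads, Fisher's exact test could not compare the responses (adjusted p = 1).

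The abundant models with the largest rises were high at 30 °C in both genotypes. LOC_Os08g42700.1 (4042 bases, on chromosome 8) rose from 73 reads in WT25 to 2255 reads in WT30, or from 1.48 to 46.6 RPKM. This was a 31.6-fold rise (interval 25.0 to 40.4; log2 ratio 4.96). In togr1-1 it had 53 reads at 25 °C and 621 reads at 30 °C, a log2 ratio of 3.55, and the wild-type response was larger by 1.41 (adjusted p = 7.93e-06, Fisher's exact test).

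LOC_Os04g49370.1 (1437 bases, on chromosome 4) rose from 182 reads in WT25 to 2734 reads in WT30, or from 10.4 to 159 RPKM. This was a 15.3-fold rise (interval 13.2 to 17.9; log2 ratio 3.93). In togr1-1 it had 30 reads at 25 °C and 1134 reads at 30 °C. There the log2 ratio was 5.22, above that of the wild type, with a difference of -1.29 for wild type minus togr1-1 (adjusted p = 9.71e-06, Fisher's exact test). Both libraries at 30 °C lay above both libraries at 25 °C for each of these risers.

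Some models were read at one temperature alone. With at least 50 reads in one wild-type library and 0 reads in the other, 19 models were read in WT25 and 3 in WT30. The 19 models had a median of 73 reads in WT25, up to 287. A count of 0 allows up to 3 reads, and against 3 reads in WT30 these models were at least 16.6-fold to at least 93.6-fold lower at 30 °C. In tog25 the same models had a median of 4 reads and in tog30 a median of 5 reads. Scaled by library totals, 18 of the 19 had at most 50% of their WT25 level in tog25. The 3 models read at 30 °C alone had between 62 and 90 reads in WT30, and in tog30 between 4 and 34. All of these models were chosen for high reads in WT25 or WT30. Lower levels in tog25 or tog30 therefore follow in part from the choice. The same shares over all models at that read level were not computed, so no difference between the genotypes is drawn from these counts.

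The temperature response of togr1-1, which shares no library with the wild type, was set beside that of the wild type for the called models. Of the models that were higher at 30 °C in the wild type, 1390 had a togr1-1 read, and 1180 of these (84.9%) were higher at 30 °C in scaled togr1-1 reads as well, against 54.5% of all wild-type models with a togr1-1 read. By the call rule itself, 451 of 1391 were higher and 14 were lower in togr1-1. Over all models with a togr1-1 read, 4.54% were called higher and 2.39% lower. Their median log2 ratio was 0.81 in togr1-1, against 1.56 for the wild-type pair. Of the models that were lower, 1199 had a togr1-1 read, and 806 of these (67.2%) were lower in togr1-1, against 45.5% of all. By the call rule, 251 of 1215 were lower and 73 were higher in togr1-1, beside the same 2.39% and 4.54% over all models. Their medians were -1.69 and -0.43. The members were chosen on the wild-type reads, so a smaller value in the other pair follows in part from the choice. Among called models with at least 1000 wild-type reads the counts with the same sign were 212 of 228 higher models and 161 of 197 lower models. Of all models with that many wild-type reads, 54.4% were higher and 45.6% lower in togr1-1.

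Gaps to togr1-1 that widened the wild-type difference were found at WT30 more often than at WT25, for rises and for falls. For models that were higher at 30 °C, WT30 was at least 2-fold above tog30 in 414 of 1391 (29.8%), and tog25 was at least 2-fold above WT25 in 211 (15.2%). For models that were lower, WT25 was at least 2-fold above tog25 in 397 of 1215 (32.7%), and tog30 was at least 2-fold above WT30 in 535 (44.0%). A low WT30 value thus accompanied more of the falls than a high WT25 value did. With at least 1000 wild-type reads the falls divided evenly, with 51 for a high WT25 and 49 for a low WT30, of 197. The rises did not, with 54 for a high WT30 and 4 for a low WT25, of 228. The models were chosen on the wild-type reads, which favours such gaps, and the same shares over all models were not computed. These counts are descriptions, and whether they reflect genotype or the single pools cannot be told apart.

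The share of models called depended on their level. No model with a mean RPKM of at most 0.1 was called (0 of 4877), and their median of 2 reads over the wild-type libraries left no room for a call. At 0.1 to 1 RPKM, 1.68% were higher and 1.35% lower. At 1 to 10 RPKM they were 8.26% and 6.95% of 9752 models. At 10 to 100 RPKM the shares were 5.13% and 4.84% of 7021 models, and at 100 to 1000 RPKM they were 5.74% and 5.84% of 1011.

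The 55 models above 1000 RPKM included 2 that were higher and 5 that were lower at 30 °C (3.64% and 9.09%), numbers too small to rank against the other levels. Together they took 19.7% of the reads in WT25, 16.3% in WT30, 20.9% in tog25 and 19.4% in tog30. WT30 was the lowest of the 4 libraries. The most abundant model by mean RPKM (1401 bases) had 24283 RPKM in WT25 and 24596 RPKM in WT30, a log2 ratio of 0.02. The second (1766 bases) had 21145 RPKM in WT25 and 11050 RPKM in WT30, and its log2 ratio of -0.94 fell short of 2-fold. In togr1-1 this second model had 12789 RPKM at 25 °C and 18855 RPKM at 30 °C, the opposite order. It alone took 3.73% of the reads in WT25 and 1.95% in WT30.

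Long transcripts were less often lower at 30 °C than short ones, and their ratios were higher. Models were divided by length into 5 groups of about equal size, with boundaries at 1047, 1509, 1955 and 2639 bases. From the shortest to the longest group, the share of models called higher went from 3.36% to 5.27%. The share called lower was 4.20%, 4.28%, 4.29%, 3.72% and 2.17%, so that the drop lay in the longer groups. The median log2 ratio went from -0.07 to 0.26. The shortest group had a median of 20 reads per model over the wild-type libraries and the longest 72, which bears on the shares. In the models with at least 100 reads, the median log2 ratio went from -0.10 to 0.28 and the share called lower from 8.85% to 3.44%. The share called higher was nearly flat there, at 7.29%, 6.53%, 6.86%, 6.63% and 8.15% from shortest to longest. In the togr1-1 libraries the median likewise went from -0.06 to 0.21, and the share called lower from 2.79% to 1.42%. The median was thus larger in the longest group than in the shortest in both pairs of libraries. With TMM factors the wild-type shares were 2.90% and 4.16% higher, and 5.09% and 2.73% lower, in the shortest and longest groups.

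Models of loci with several transcript models were higher more often than lower in the wild type, whereas those of single-model loci were not. A locus with several called models is counted here once for each of them. Of the 21843 models that were the only one of their locus with a read, 3.78% were higher at 30 °C and 4.77% were lower. At loci with 2 models, 349 of 6974 models were higher and 127 were lower. At loci with 3 models they were 5.44% and 0.900%, and at loci with 4 or more models 6.45% and 1.77%. In the togr1-1 libraries the corresponding shares were 4.66% higher and 2.59% lower for single models, and 4.14% and 2.32% at loci with 4 or more models. With TMM factors, 3.05% of single models were higher and 5.64% lower, against 5.76% and 2.07% at loci with 4 or more models.

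Length and the number of models were then crossed, in models with at least 100 reads over the wild-type libraries. In the longest group, 15.7% of models from loci with several models were higher and 1.82% were lower. Those from loci with a single model were higher in 5.79% and lower in 3.95%. In the shortest group the shares were 6.35% and 5.69% at loci with several models, and 7.45% and 9.39% at loci with a single model. Scaled by read totals, models of loci with several models were higher more often than lower in each of the 5 length groups. Models of single-model loci were so in the longest group alone. For loci with several models the margin in the shortest group was small, over 299 models with a median log2 ratio of -0.08. The crossing was not repeated with TMM factors, so the order in that group is not fixed.

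**Figure D3:**
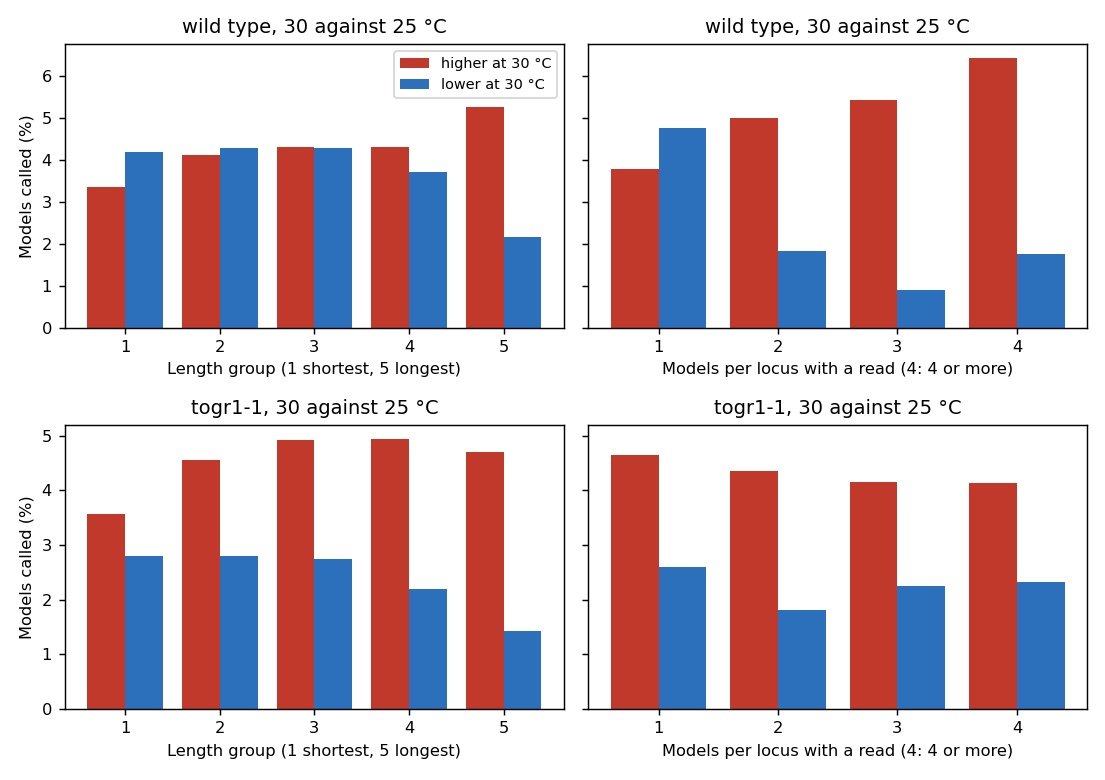
Percent of transcript models called higher (red) and lower (blue) at 30 °C, by transcript length in 5 groups from shortest to longest (left) and by number of models per locus with a read (right), in the wild-type pair (upper row) and the togr1-1 pair (lower row), scaled by read totals. The wild-type share called lower is 4.20%, 4.28%, 4.29%, 3.72% and 2.17% from the shortest to the longest group. By number of models it is 4.77%, 1.82%, 0.900% and 1.77%. Between the first and the last group by number of models, the drop is smaller in togr1-1.

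Reads at loci with several models lay mostly on 1 leading model, taken as the one with most reads over the 4 libraries. At the 4942 such loci, the other models held 10.9% of the reads in WT25 and 12.2% in WT30. In togr1-1 they held 11.2% at 25 °C and 12.4% at 30 °C. Both libraries at 30 °C lay above both at 25 °C, by a small margin. Among models with at least 100 wild-type reads, 17.1% of 590 other models were higher at 30 °C and 3.22% lower, against 10.3% and 3.18% of 2575 leading models. At the 1796 loci with at least 100 reads in each wild-type library, the leading model of WT25 was also that of WT30 at all but 66.

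Of 104 loci with more than 1 called model, 102 had all called models in the same direction. At the other 2 loci the models moved oppositely. On chromosome 5, a model of 3522 bases rose from 496 reads in WT25 to 1147 reads in WT30 (log2 ratio 1.24) while a model of 2998 bases of the same locus fell from 98 to 22 reads (log2 ratio -2.08). In togr1-1 the longer model went from 374 to 797 reads and the shorter from 48 to 114 reads, both upward. On chromosome 9, a model of 3495 bases rose from 3 to 38 reads while a model of 1289 bases fell from 14 to 0 reads. How the authors' counting divided reads between overlapping models is not given in the sources used here, so the split between models of a locus is uncertain.

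Called models were found on all 12 chromosomes, in similar shares. The share that was higher at 30 °C ranged from 3.64% on chromosome 4 to 4.97% on chromosome 11. The share that was lower ranged from 2.62% on chromosome 11 to 4.72% on chromosome 7. Chromosome 11 thus had the largest share of rises and the smallest share of falls.

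Neighbouring loci were called in the same direction more often than loci in general. Loci with a wild-type read were put in the order of their identifiers, taken here as the order along each chromosome. Of the loci with a model that was higher at 30 °C and with a next locus on the chromosome, 9.44% (122 of 1293) were followed by another such locus, against 4.90% of all loci. They were followed by a locus with a lower model in 3.17%, against 4.50% of all loci. Of the loci with a lower model, 9.08% (108 of 1190) were followed by another such locus and 3.53% by one with a higher model. With TMM factors the shares followed by the same direction were 7.30% against 3.94% for higher and 9.69% against 5.39% for lower. Neighbouring genes can be near-identical copies that share reads, which these files do not show. The shares are descriptions, with no test.

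Most such runs were pairs. Of the loci with a higher model, 227 lay in 105 runs of 2 or more, and of the loci with a lower model, 199 lay in 91 runs. The longest run was of 5 loci on chromosome 4 that were all higher at 30 °C. Along this run the reads in WT25 were 8, 28, 15, 308 and 69, and those in WT30 were 100, 177, 90, 1643 and 733. In togr1-1 the run had 286 reads in all at 25 °C and 599 reads at 30 °C, against 428 and 2743 in the wild type. The response differed from that of togr1-1 by Fisher's exact test, with the limits used for all models, at 3 of the 5 loci. The run was chosen on the wild-type reads, which the test reuses. Over all models the test called a difference in 4.61%.

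The longest runs of lower loci were a pair of 4 loci each. A run on chromosome 4 had 95, 77, 73 and 308 reads in WT25 and 2, 0, 0 and 8 reads in WT30. In tog25 its loci had 14, 2, 8 and 27 reads, and in tog30 they had 20, 6, 33 and 52 reads. At all 4 loci WT25 was the highest and WT30 the lowest of the libraries, and the responses differed by Fisher's exact test at each. A run on chromosome 10 had 329, 23, 544 and 110 reads in WT25 and 17, 3, 43 and 34 reads in WT30. There tog25 had 287, 55, 497 and 153 reads, above WT25 at 2 of the 4 loci and below it at the others, while tog30 had 238, 56, 215 and 40 reads. WT30 was thus the lowest library along the whole run, and the responses differed at 2 of the 4 loci. Both runs were chosen on the wild-type reads, which the test reuses. A high WT25, a low WT30 and a differing response follow in part from the choice. Over all models the test called a difference in 4.61%.

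**Figure D4:**
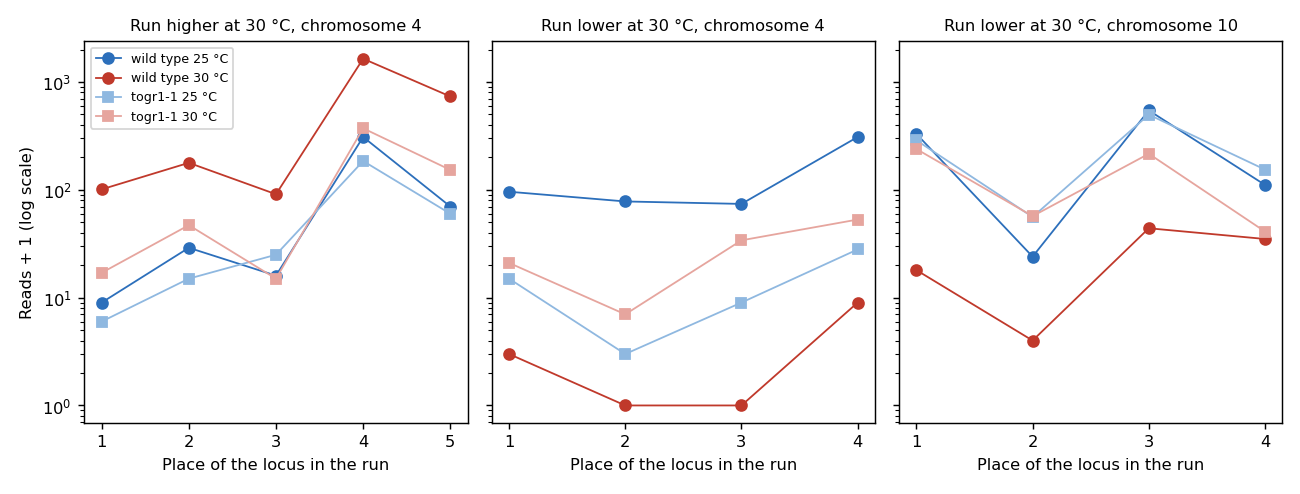
Reads plus 1 (vertical axis, log scale) of each locus along the 3 longest runs of neighbouring loci called in the same direction in the wild type (horizontal axis, place in the run), in WT25, WT30, tog25 and tog30, 1 pooled library per line. In the run of 5 loci on chromosome 4 WT30 lies above all other libraries, and in the runs of 4 loci on chromosomes 4 and 10 WT30 lies below all others. The runs were chosen on the wild-type reads, which favours an extreme WT30.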

How the data were processed

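Leaf blades of the fourth leaves were pooled for each of 4 conditions, and poly(A) RNA was sequenced on the Illumina HiSeq platform. The authors deposited raw read counts per transcript model, with no normalization, and RPKM values, which divide these counts by model length and by the column total. The aligner, genome build and annotation release are not given in the sources used here. The deposited tables also hold the authors' log2 ratios, direction labels, p-values and FDR, which were not used.

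Wild-type counts were compared for each model with an exact binomial test, two-sided by doubling the smaller tail, given the summed reads of both libraries and with the read totals setting the expected share. P-values were adjusted by Benjamini-Hochberg over the 32564 models with a wild-type read. Calls needed an adjusted p no larger than 0.001 and a scaled difference of 2-fold or more. Log2 ratios had 1 read added to each count. Ratios of reads carry 95% Clopper-Pearson intervals, and a count of 0 was taken to allow 3 reads. Intervals and floors cover counting error only, and PCR copies are not independent molecules. Responses of the genotypes were compared by Fisher's exact test on the 4 libraries, adjusted over 35204 models, with the same limits; a model absent from one table was given 0 reads there. The tests were checked on counts simulated with counting error alone. That check does not cover the spread between plants.

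Named models were the loci that the study names and, among called models with at least 1000 wild-type reads, the 2 highest and 2 lowest log2 ratios. Members and lists were chosen with earlier results of these data known. Of 28458 loci, 0 matched the RefSeq table of assembly ASM3414082v1, so lists of genes by pathway and of tissue markers, written from general knowledge and looked at in a first pass, were left out. The crossing of length with models per locus, the leading-model shares and the comparison of single libraries between genotypes were added after values had been seen. No sequences were printed. Alternatives were TMM and DESeq2 scaling, a minimum of 10 reads, other limits, reads summed per locus, thinning, and edgeR's exact test with an assumed coefficient of variation. Tools were edgeR 4.0.16 and DESeq2 1.42.0 in R 4.3.3, and scipy 1.17.1, numpy 2.4.6, matplotlib 3.10.9 and pandas 2.3.3 in Python 3.11.15.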

Additional observations from a re-analysis of the deposited data

Results flagged for a closer look

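The temperature response of 4 of the named models differed between the wild type and togr1-1 by Fisher's exact test, with a size of 2-fold or more. For the first model of the GolS2 homologue on chromosome 7 (LOC_Os07g48830.1) the wild-type log2 ratio exceeded that of togr1-1 by 1.30, while summed over both models of the locus the difference was 0.99. For LOC_Os01g73200.1 the difference was -6.54, with WT25 the only library in which it was abundant. For LOC_Os08g42700.1 it was 1.41 and for LOC_Os04g49370.1 it was -1.29, both rising in both genotypes. Over all models 1622 of 35204 (4.61%) differed by this rule. LOC_Os01g73200.1, LOC_Os08g42700.1 and LOC_Os04g49370.1 were picked for extreme wild-type ratios, and the test reuses those reads. A larger wild-type response at LOC_Os01g73200.1 and LOC_Os08g42700.1 follows in part from the choice. At LOC_Os04g49370.1 the larger response was that of togr1-1. The test compares single pooled libraries, and the spread between plants was not measured.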

How the results depend on the processing

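The number of called models was within 1.5 times of 2606 under TMM factors (2588), DESeq2 size factors (2571), a minimum of 10 reads (2683), reads summed per locus (2362) and thinning to the smaller total (2601). A 4-fold limit left 930 models (434 higher, 496 lower), and an adjusted p of at most 0.05 gave 4149 (2259 higher, 1890 lower). With edgeR's exact test and an assumed coefficient of variation of 0.2, 531 models passed (227 higher, 304 lower), and with 0.4 there were 24 (3 higher, 21 lower), since an assumed spread between samples widens the test. The log2 ratio of the first TOGR1 model reversed from 0.04 to -0.057 with TMM factors, and that of the whole locus from 0.07 to -0.025, both within counting error; the cause is the shift of -0.10 that TMM applies to all ratios. All other named loci kept their direction and call with TMM factors and with a pseudocount of 5. TMM factors for neighbouring loci, length and models per locus were added after the data were seen. Alternatives for lists of genes by pathway were not run, as those lists were left out. No paired analysis was possible because each condition had 1 library, and no replicate could be left out. Depth limits calls below 0.1 RPKM, where none of 4877 models passed.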
